A study of Mus musculus with 6 samples.

Results

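Bone cells pass small molecules to each other through gap junctions and open other channels when they are deformed. The genes described here encode 9 of the proteins involved, the connexins Gja1 and Gjc1, the pannexins Panx1 and Panx3, the ATP-gated channel P2rx7, the polycystins Pkd1 and Pkd2, and the cation channels Piezo1 and Trpv4. They were taken by symbol from an RNA-seq table of 39179 listed genes. Genes entered the tests when 2 or more of the 6 libraries held 0.5 RPKM or more, a limit that each of the 9 reached, as did 14264 genes in all. RPKM is the number of reads of a gene divided by its length and scaled to the reads of its library, so levels of different genes can be set side by side.

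The libraries were made from Ocy454 cells, a mouse osteocytic cell line, and the study worked with a subclone grown from a single cell. All cells reached confluency at 33 °C, were kept at 37 °C for 14 days and received fresh medium 24 h before they were collected. They were exposed for 4 h to vehicle, to PTH 1-34 at 1 nM, or to YKL-05-093 at 0.5 µM, with 2 libraries in each group. PTH is parathyroid hormone, and YKL-05-093 is a small molecule that inhibits salt-inducible kinases. PTH signalling restrains SIK2, a member of this kinase family. The study reports that the inhibitor also acts on other kinases in vitro. It also reports that some genes responded to the inhibitor in cells without the predominant members of the family. The part of other kinases in the differences after YKL-05-093 was not tested here. The labels give the vehicle of both agents as PBS with HCl, whereas the study's methods name DMSO as the solvent for work on cells and PBS with HCl for animals, and which of them these cells received is not settled here. The study asked how far kinase inhibition changes the genes that PTH changes. The labels do not say that the duplicates came from separate cultures, so the spread between them may be technical.

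A gap junction is a pair of docked channels, 1 from each cell, each built of connexin subunits, and in osteoblasts and osteocytes connexin 43, the product of Gja1, is its main component. Connexin and pannexin channels in a single membrane can also release ATP, which acts on purinergic receptors such as P2X7. Polycystin-1 and polycystin-2 form a receptor-channel complex of the primary cilium, and Piezo1 and TRPV4 let cations in when the membrane is stretched or the cell swells.

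Library totals, worked back from the RPKM, lay between 17505798 and 27983585 reads. They are the totals that scale the RPKM, and the study states a greater average sequencing depth. Of 6 osteocyte markers, Pdpn (53.1 to 171 RPKM), Phex (0.764 to 4.93 RPKM) and Dmp1 (0.376 to 1.15 RPKM) were measured, whereas the late markers Mepe, Sost and Fgf23 had at most 4 reads in any library. All 10 markers of the osteoblast lineage were measured, with a summed level of 1095 to 1630 RPKM. The libraries of the vehicle pair stood further apart from each other than those of the treated pairs, with a median absolute log2 difference over genes of 0.333 against 0.108 for PTH and 0.103 for YKL-05-093, so comparisons with vehicle were less precise than the comparison between the treatments.

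PTH raised Gja1 and lowered Panx3, and the other 7 genes did not pass the test. A gene was called when limma, run on log2(RPKM + 0.1) over all tested genes, gave a Benjamini-Hochberg adjusted p under 0.05 and the change exceeded 2-fold. By this rule 2 of the 9 genes were called for PTH against vehicle, 1 in each direction. Of all 14261 genes tested there, 272 were called (1.91%), 1.09% higher and 0.813% lower. Without the limit of 2-fold the same 2 of the 9 passed, as did 2.19% of all genes. For YKL-05-093 against vehicle limma called 0 of the 9, against 0.666% of all genes tested (0.393% higher). Gja1 came closest of the 9, with a limma adjusted p of 0.0511. Between the treatments, 1 of the 9 was called, Panx3, which was lower after PTH, where the share of all genes called lower was 0.470% (1.21% in both directions). The median log2 difference of the 9 genes was -0.16 for PTH and -0.12 for YKL-05-093, beside -0.03 and -0.04 for all genes tested. Both treatments were compared with the same pair of vehicle libraries.

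The libraries of PTH and vehicle did not overlap for 5 of the 9 genes (Gja1, Gjc1, Panx3, Trpv4 and P2rx7), as for 43.1% of all genes tested. Those of YKL-05-093 and vehicle did not overlap for 4 of them (Gja1, Gjc1, Piezo1 and Trpv4), beside 37.8% of all genes, and those of the 2 treatments for 5 (Gja1, Gjc1, Panx1, Panx3 and Pkd1), beside 50.0%. With 2 libraries against 2, an exact permutation test of a single gene cannot give a two-sided p below 0.333, so the tests depend on the variance that limma borrows from all genes.

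**Figure D1:**
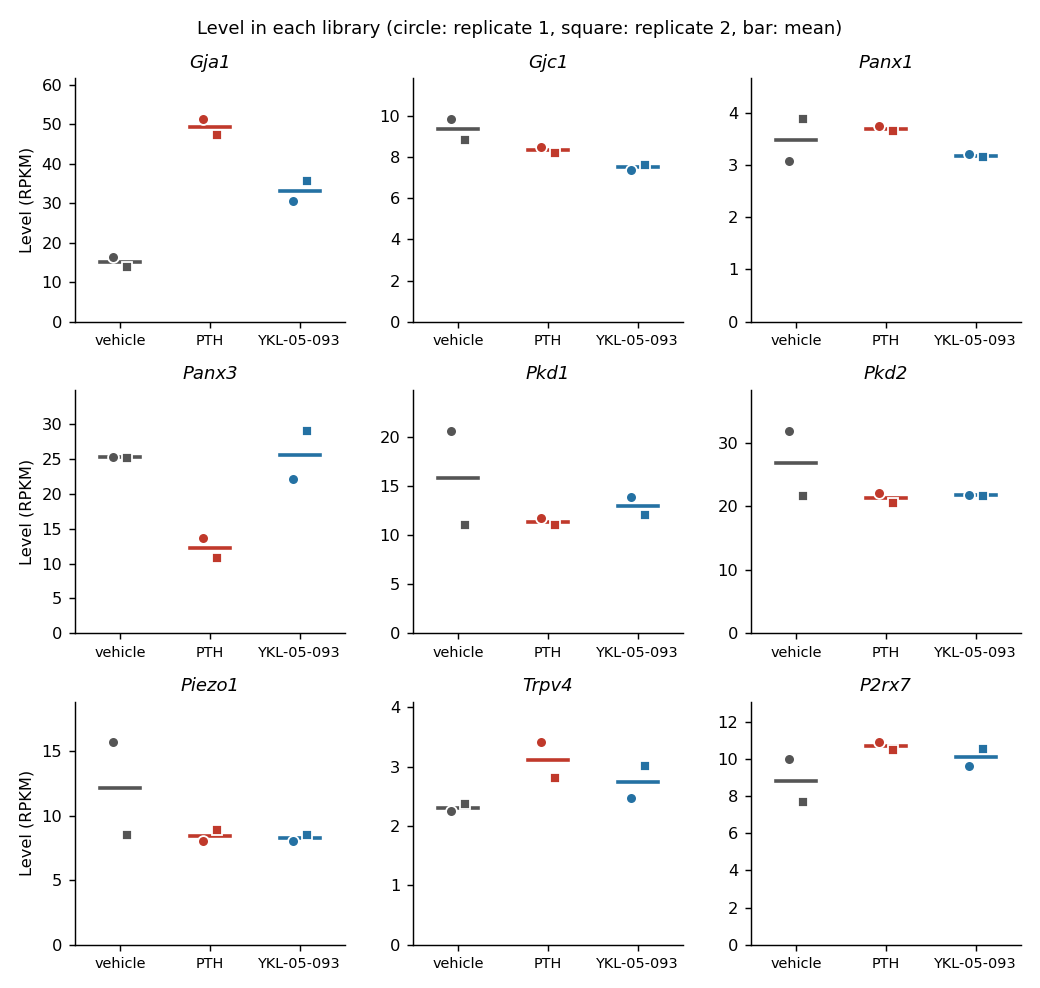
Level of each of the 9 genes in RPKM (linear axis from 0) in each library by group (2 libraries of vehicle, PTH and YKL-05-093), with circles for replicate 1, squares for replicate 2 and a bar at the mean. Gja1 stood at 13.9 to 16.3 RPKM in vehicle and 47.1 to 51.3 RPKM after PTH, and Panx3 at 25.2 to 25.3 and 10.7 to 13.6 RPKM, while Pkd1, Pkd2 and Piezo1 had a high value in the first vehicle library.

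Gja1 (ENSMUSG00000050953) lies on the forward strand at chr10:56377330-56402513 of GRCm38 and is annotated as protein coding with 5 merged exons. Its product, connexin 43, forms the gap junctions that join osteocyte processes. The bases upstream of the start of Gja1 are shown because they hold 2 copies of TGACG, the core of the cAMP response element (CRE) to which CREB binds. Upstream bases of Panx1, which also holds the core and whose level after PTH overlapped that of vehicle, are shown for comparison. Both sequences come from RefSeq (GRCm38.p6) and end just before the RefSeq start, which for Gja1 lies upstream of the GENCODE start given above, with Gja1 at chr10:56377050-56377299 on the forward strand and Panx1 at chr9:15045479-15045728 on the reverse strand. Capitals mark TGACG on either strand (shown as its reverse complement where it lies on the other strand), the AP-1 motif TGANTCA in Gja1, and the RUNX core TGTGGT in Panx1, again on either strand.
Gja1: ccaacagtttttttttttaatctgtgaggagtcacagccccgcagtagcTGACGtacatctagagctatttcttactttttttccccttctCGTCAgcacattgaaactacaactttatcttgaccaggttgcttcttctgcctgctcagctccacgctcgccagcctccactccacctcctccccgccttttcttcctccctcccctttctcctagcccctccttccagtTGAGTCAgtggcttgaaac
Panx1: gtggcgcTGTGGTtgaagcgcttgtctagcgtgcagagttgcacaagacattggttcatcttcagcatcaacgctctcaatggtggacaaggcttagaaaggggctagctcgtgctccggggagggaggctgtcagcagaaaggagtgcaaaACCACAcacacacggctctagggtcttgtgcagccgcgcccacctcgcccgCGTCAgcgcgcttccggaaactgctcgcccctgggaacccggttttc

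In Gja1 the TGACG copies lie at -201 to -197 and at -159 to -155 from the start, and the AP-1 motif at -19 to -13. In Panx1 TGACG lies at -47 to -43. Promoter windows of 300 bases (250 before and 50 after the start) matched 7 of the 9 genes. Panx3 and Gjc1 had no window. Searched on both strands, TGACG was found in 20.8% of all 32851 windows and, of the 7 genes, in Gja1 and Panx1. The AP-1 motif was in 7.81% of all windows and in those of Gja1 and P2rx7. TGTGGT was in 16.8% of windows (Panx1 among the 7), TATAAA in 13.6% (Piezo1) and the TEAD core GGAATG in 14.7% (Pkd2). The full CRE (1.79% of windows), which contains TGACG, and the MEF2 site (3.19%) were not found as letters in the windows of the 7 genes. These matches are letters in a window and were not tested for binding or for a part in the level of any gene.

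The level of Gja1 was 16.3 and 13.9 RPKM in the vehicle libraries, 51.3 and 47.1 RPKM with PTH and 30.5 and 35.7 RPKM with YKL-05-093. The 3 groups did not overlap, with PTH highest, vehicle lowest and YKL-05-093 between them. The values rested on 886 to 3439 reads. Mean levels were 15.1 ± 1.68, 49.2 ± 2.95 and 33.1 ± 3.68 RPKM (SD, n = 2 each).

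PTH raised Gja1 3.25-fold (95% interval 2.46 to 4.28), a log2 difference of 1.70 with a standard error of 0.17 (limma, adjusted p = 0.00402). This call was lost without PTH replicate 1 (log2 difference 1.64, limma adjusted p = 0.231) and without PTH replicate 2 (1.76, adjusted p = 0.185). Each of these fits leaves a single PTH library, whose spread is then taken from the vehicle pair. With no low-value filter, limma gave an adjusted p of 0.0611 and the call was lost as well. For YKL-05-093 against vehicle the log2 difference of Gja1 was 1.13, or 2.18-fold (standard error 0.17, 95% interval 0.71 to 1.54), and its limma adjusted p of 0.0511 lay just above the threshold. It lay below the threshold in the limma fit of all 6 libraries (adjusted p = 0.0102). The same held after centring each library on its median (0.0354) and with voom (0.0464). Of 19 other settings run, 7 called Gja1 for YKL-05-093 and the rest did not. Its log2 difference lay between 1.01 and 1.24 in them.

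Tested directly, Gja1 was 1.49-fold higher after PTH than after YKL-05-093, a log2 difference of 0.57 (95% interval 0.41 to 0.74, limma adjusted p = 0.000108) that did not reach 2-fold. With an adjusted p under 0.05 at any fold, 2 of the 9 genes (Gja1 and Panx3) and 9.97% of all genes differed between the treatments. For Gja1 that adjusted p was 0.169 when all 6 libraries entered 1 limma fit, 0.247 without PTH replicate 1, 0.217 without PTH replicate 2 and 0.0683 without YKL-05-093 replicate 1. The 3 genes whose pattern over the 6 libraries was most like that of Gja1, by the root mean square difference of centred log2 values, were Slc1a3 (0.143), a glutamate transporter, Ppap2b (0.147), a lipid phosphate phosphatase, and Eya2 (0.147), a transcriptional cofactor. Mean levels of Slc1a3, the closest, were 7.53, 20.2 and 14.4 RPKM for vehicle, PTH and YKL-05-093, respectively.

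Gjc1 (ENSMUSG00000034520, chr11:102799579-102819700, reverse strand) encodes connexin 45, a second connexin of bone cells whose channels conduct differently from those of connexin 43. Its level was 9.86 and 8.84 RPKM with vehicle, 8.52 and 8.19 RPKM with PTH and 7.38 and 7.63 RPKM with YKL-05-093. Each treated pair lay below the vehicle pair without overlap, by amounts that did not pass the test. The log2 difference was -0.16 for PTH (95% interval -0.53 to 0.21, limma adjusted p = 0.753) and -0.31 for YKL-05-093 (95% interval -0.68 to 0.06, limma adjusted p = 0.685).

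Of 20 connexin genes listed, Gja1 and Gjc1 passed the limit on low values. The other 18 had at most 0.185 RPKM and 6 reads in any library, and 16 of them had no more than 3 reads in every library, the floor used here. The summed level of the connexins was 26.7 and 23.2 RPKM with vehicle, 60.1 and 55.5 RPKM with PTH and 38.2 and 43.5 RPKM with YKL-05-093. Gja1 made up 61.1% and 60.2% of that sum with vehicle, 85.4% and 84.9% with PTH and 79.9% and 82.1% with YKL-05-093. The connexin sum of these cells was therefore nearly all Gja1 and Gjc1, with the share of Gja1 higher in every treated library than in either vehicle library.

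**Figure D2:**
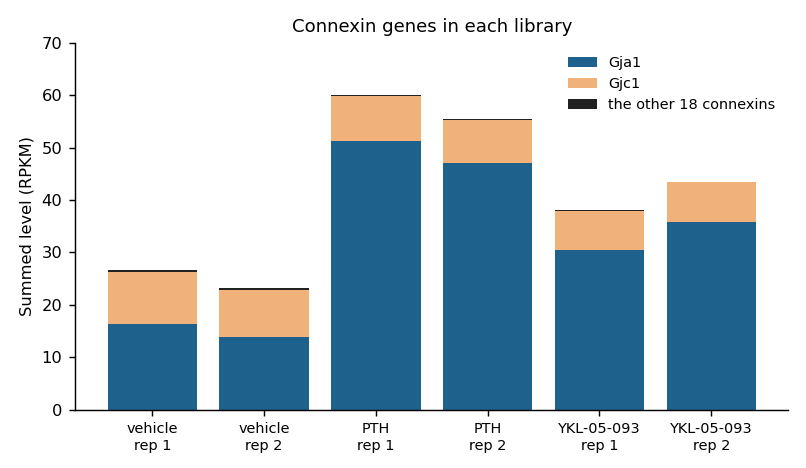
Summed level of the connexin genes in RPKM in each of the 6 libraries, stacked as Gja1, Gjc1 and the other 18 connexins. The sum was 23.2 to 26.7 RPKM in vehicle, 38.2 to 43.5 RPKM after YKL-05-093 and 55.5 to 60.1 RPKM after PTH, and the layer of Gjc1 stayed between 7.38 and 9.86 RPKM.

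Panx3 (ENSMUSG00000011118, chr9:37659902-37669235, reverse strand, 5 merged exons) encodes pannexin 3, a channel of osteoblasts and cartilage cells that passes ATP and calcium. Its level was 25.3 and 25.2 RPKM with vehicle, 13.6 and 10.7 RPKM with PTH and 22.1 and 29.1 RPKM with YKL-05-093, from 544 to 1869 reads. Both PTH libraries lay below every other library, and the YKL-05-093 libraries lay on either side of the vehicle pair. Means were 25.2 ± 0.119, 12.2 ± 2.03 and 25.6 ± 4.95 RPKM (SD, n = 2 each).

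With PTH, Panx3 decreased by 1.06 on the log2 scale (standard error 0.18, 95% interval -1.47 to -0.64), to 0.481 of the vehicle level (limma, adjusted p = 0.0290). After YKL-05-093 the log2 difference from vehicle was 0.01 (95% interval -0.43 to 0.44, limma adjusted p = 0.997). The direct comparison gave a log2 difference of -1.06 between PTH and YKL-05-093 (95% interval -1.31 to -0.81, limma adjusted p = 1.15e-05). Panx3 thus differed between the treatments by about as much as between PTH and vehicle.

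The call of Panx3 against vehicle was lost with the limma variance trend on the mean log2 value (adjusted p = 0.0626), with no low-value filter (0.141), without PTH replicate 1 (0.407) and without PTH replicate 2 (0.889). Against YKL-05-093 it was lost without a filter (0.124), without PTH replicate 1 (0.179), without PTH replicate 2 (0.245) and without YKL-05-093 replicate 2 (0.0657). Over all settings run, the log2 difference of Panx3 from vehicle lay between -1.22 and -0.89, and that from YKL-05-093 between -1.26 and -0.86. The 3 genes with the pattern most like Panx3, by the same root mean square difference, were Lpar3 (0.0781), a receptor for lysophosphatidic acid, Wnt10b (0.113), a Wnt ligand, and Rerg (0.115), a small GTPase. Mean levels of Lpar3 were 3.57, 1.72 and 3.62 RPKM for vehicle, PTH and YKL-05-093, respectively.

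Since pannexin 3 and connexin 43 are also made by other skeletal cells, marker levels were read in the same libraries. In bulk RNA, a change in the number of cells of a type and a change in the RNA of each cell cannot be told apart. Of 5 chondrocyte markers, 1 (Col2a1) passed the limit, and their summed level was 0.956 and 0.909 RPKM with vehicle, 1.91 and 2.05 RPKM with PTH and 0.964 and 1.34 RPKM with YKL-05-093. Acan and Matn1 had at most 3 reads in any library. The summed level of the 6 osteocyte markers was 55.7 and 73.3 RPKM with vehicle, 176 and 165 RPKM with PTH and 99.1 and 98.4 RPKM with YKL-05-093, nearly all of it Pdpn. Both sums were highest in the PTH libraries. With PTH the chondrocyte sum was mostly Col2a1, with means of 0.601 RPKM with vehicle and 1.62 RPKM with PTH. Comp overlapped, at 0.309 and 0.327 RPKM with vehicle and 0.154 and 0.436 RPKM with PTH. The osteocyte marker Dmp1 did not follow its sum, at 0.643 and 1.15 RPKM with vehicle, 0.689 and 0.723 RPKM with PTH and 0.376 and 0.490 RPKM with YKL-05-093, and Mepe had 4 and 2 reads with vehicle and 0 in both PTH libraries. The summed level of the 10 osteoblast lineage markers was 1239 and 1095 RPKM with vehicle, 1540 and 1271 RPKM with PTH and 1305 and 1630 RPKM with YKL-05-093, though its members did not all differ in 1 direction. Mean levels for vehicle, PTH and YKL-05-093 were 45.8, 11.6 and 26.0 RPKM for Sp7 (osterix), 16.3, 7.45 and 12.1 RPKM for Runx2, and 57.8, 36.0 and 66.1 RPKM for Pth1r, the PTH receptor. The osteocalcin genes Bglap and Bglap2, near-identical copies whose reads may be shared, had means of 9.04, 26.2 and 11.6 RPKM and of 22.2, 61.3 and 30.4 RPKM in the same order. For each of these 5 genes both PTH libraries lay outside the range of the vehicle pair, Sp7, Runx2 and Pth1r below and Bglap and Bglap2 above. Of all genes tested, 43.1% had PTH and vehicle libraries that did not overlap. Of the other lineage markers, Alpl and Ibsp also lay above the vehicle pair with PTH, while Col1a1, Col1a2 and Spp1 overlapped it. The part of these marker levels in the changes of Gja1 and Panx3 was not tested. Summed markers of adipocytes lay at 1.10 to 2.37 RPKM and those of haematopoietic cells at 3.87 to 4.73 RPKM. Those of endothelium (0.249 to 0.574 RPKM) and muscle (0.280 to 0.422 RPKM) were lower. All were low beside the osteoblast lineage sum in all 6 libraries. The haematopoietic marker Cd68 (3.69 to 4.42 RPKM) and the adipocyte marker Fabp4 (1.08 to 2.27 RPKM) still lay above Dmp1 in each library. The endothelial marker Cdh5 and the muscle markers Myod1 and Ckm were at 0 in each.

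Panx1 (ENSMUSG00000031934, chr9:15002128-15045478, reverse strand) encodes pannexin 1, a widely expressed ATP release channel. Its level was 3.08 and 3.88 RPKM with vehicle, 3.75 and 3.64 RPKM with PTH and 3.20 and 3.15 RPKM with YKL-05-093. The vehicle pair enclosed both treated pairs, so the groups overlapped. The log2 difference was 0.09 for PTH (95% interval -0.33 to 0.51, limma adjusted p = 0.881), -0.12 for YKL-05-093 (95% interval -0.55 to 0.31, limma adjusted p = 0.910) and 0.21 between the treatments (95% interval -0.03 to 0.46, limma adjusted p = 0.307). Panx2, the remaining pannexin, had at most 7 reads in a library.

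P2rx7 (ENSMUSG00000029468, chr5:122643911-122691432, forward strand) encodes the P2X7 receptor, a cation channel that opens at high extracellular ATP. Its level was 9.98 and 7.69 RPKM with vehicle, 10.9 and 10.5 RPKM with PTH and 9.64 and 10.5 RPKM with YKL-05-093. The PTH libraries lay above both vehicle libraries, and the YKL-05-093 libraries overlapped them. The log2 difference was 0.29 for PTH (95% interval -0.14 to 0.71, limma adjusted p = 0.606) and 0.20 for YKL-05-093 (95% interval -0.24 to 0.63, limma adjusted p = 0.854). These values rested on the vehicle libraries. For PTH the difference was 0.47 without vehicle replicate 1 (limma adjusted p = 0.0267) and 0.10 without vehicle replicate 2 (0.369), and for YKL-05-093 it was 0.38 and 0.01 (0.131 and 0.919). Exons of P2rx7 share 119 bases with the microRNA gene Mir8115 on the same strand.

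Pkd1 (ENSMUSG00000032855, chr17:24549834-24596508, forward strand, 42 merged exons) encodes polycystin-1, the large receptor-like subunit. Its level was 20.6 and 10.99 RPKM with vehicle, 11.7 and 10.99 RPKM with PTH and 13.8 and 12.01 RPKM with YKL-05-093. Pkd2 (ENSMUSG00000034462, chr5:104459450-104505819, forward strand) encodes the channel subunit polycystin-2. The level of Pkd2 was 31.9 and 21.6 RPKM with vehicle, 22.1 and 20.5 RPKM with PTH and 21.8 and 21.7 RPKM with YKL-05-093. Both genes were high in the first vehicle library, while the second vehicle library lay close to the treated ones.

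Piezo1 (ENSMUSG00000014444, chr8:122481698-122551329, reverse strand, 43 merged exons) encodes the stretch-activated channel through which osteoblasts and osteocytes take up calcium under load. Its level was 15.7 and 8.52 RPKM with vehicle, 8.07 and 8.87 RPKM with PTH and 8.08 and 8.50 RPKM with YKL-05-093. As with the polycystins, 1 vehicle library stood apart and the other was within the range of the PTH libraries.

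Against vehicle the log2 difference after PTH was -0.40 for Pkd1 (95% interval -1.08 to 0.27), -0.30 for Pkd2 (-0.82 to 0.22) and -0.45 for Piezo1 (-1.10 to 0.21), with limma adjusted p of 0.650, 0.668 and 0.594. For YKL-05-093 it was -0.22 for Pkd1 (-0.92 to 0.47), -0.27 for Pkd2 (-0.79 to 0.25) and -0.48 for Piezo1 (-1.14 to 0.19), with limma adjusted p of 0.896, 0.839 and 0.767. These intervals were wide, and decreases of more than 2-fold lay within those of Pkd1 and Piezo1 for PTH and of Piezo1 for YKL-05-093. Without vehicle replicate 1, the log2 differences after PTH were 0.05 for Pkd1, -0.02 for Pkd2 and -0.01 for Piezo1. Without vehicle replicate 2 they were -0.85, -0.58 and -0.88 in the same order. Between the treatments, where the vehicle libraries do not enter, the differences were -0.18 for Pkd1 (-0.34 to -0.02, limma adjusted p = 0.161), -0.03 for Pkd2 (-0.17 to 0.11, adjusted p = 0.862) and 0.03 for Piezo1 (-0.12 to 0.18, adjusted p = 0.874). For Pkd2 and Piezo1 the difference between PTH and YKL-05-093 was thus within 0.18 on the log2 scale in this fit.

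The 3 genes with the widest vehicle pair were also the longest of the 9, at 14124 (Pkd1), 9248 (Piezo1) and 8499 (Pkd2) bases of recovered exon length. The first vehicle library exceeded the second by 0.90, 0.87 and 0.56 on the log2 scale for Pkd1, Piezo1 and Pkd2, and 7.35%, 7.94% and 24.3% of all genes differed by more, in either direction. Over all tested genes the median of this vehicle difference was -0.32 for genes under 1000 bases and 0.59 for genes of 8000 bases or more. In the PTH pair the same medians were 0.03 and 0.06, and in the YKL-05-093 pair 0.12 and -0.02. Gene length therefore moved with the vehicle difference and not to that extent with the treated ones, and its part in the values of Pkd1, Pkd2 and Piezo1 was not tested. The called genes Gja1 (3103 bases) and Panx3 (2654 bases) fell in the length class from 2000 to 4000 bases, whose median vehicle difference was -0.01. Their own vehicle differences were 0.23 and 0.01, and the part of length in their changes was not tested either.

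**Figure D3:**
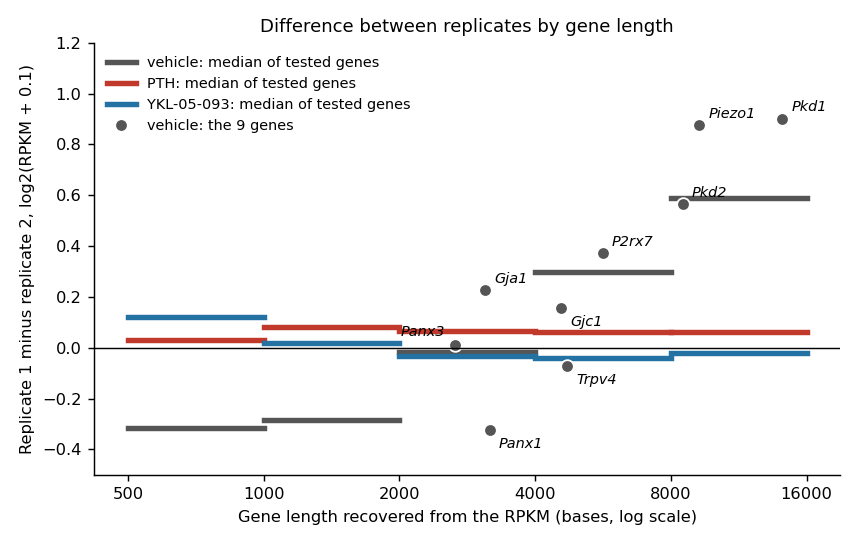
Difference between replicate 1 and replicate 2 in log2(RPKM + 0.1) against the gene length recovered from the RPKM (log axis, in bases), with horizontal lines for the median of all tested genes in 5 length classes in each group (the shortest and longest classes are open-ended) and points for the 9 genes in vehicle. The vehicle medians ran from -0.32 in the shortest to 0.59 in the longest class, and Pkd1 and Piezo1 lay above the median of their class.

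The authors' libraries were directional, but the strand setting of the read counting is not given in the sources used here. Exons of Pkd1 share 693 bases with Tsc2, and exons of Piezo1 share 2441 bases with Ctu2, both on the opposite strand. If strand was not used, reads of these pairs could not be separated there.

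Trpv4 (ENSMUSG00000014158, chr5:114622152-114658421, reverse strand) encodes a calcium-permeable channel that responds to swelling and, through the cytoskeleton, to fluid flow. It had the lowest level of the 9, at 2.25 and 2.37 RPKM with vehicle, 3.42 and 2.81 RPKM with PTH and 2.47 and 3.02 RPKM with YKL-05-093, from 186 to 348 reads. The libraries of both treatments lay above the vehicle pair without overlap. The log2 difference was 0.41 for PTH (95% interval 0.00 to 0.81), with an unadjusted limma p of 0.0488 and an adjusted p of 0.371, so the difference did not pass the test. For YKL-05-093 it was 0.23 (95% interval -0.19 to 0.65, limma adjusted p = 0.829).

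**Figure D4:**
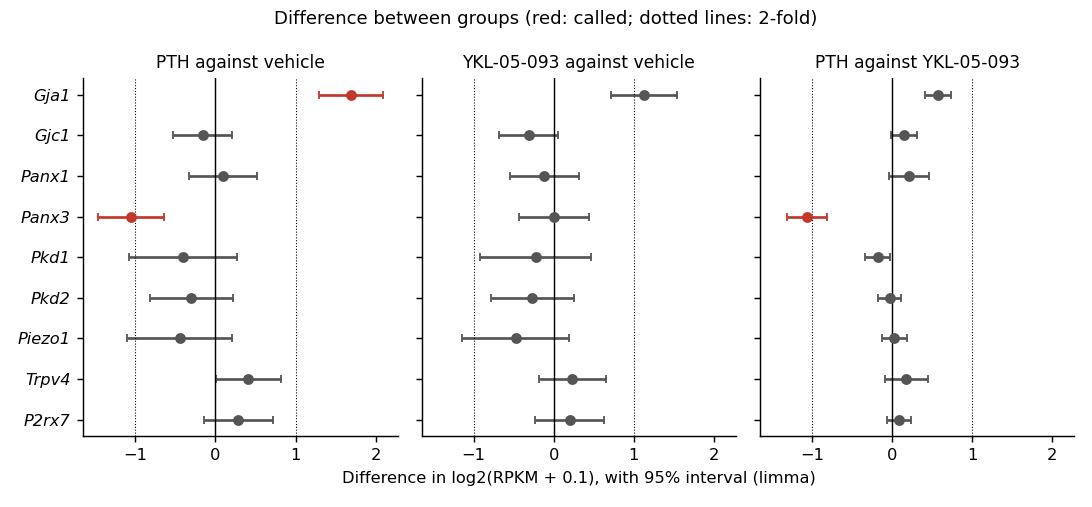
Difference between groups in log2(RPKM + 0.1) for each of the 9 genes, with the 95% interval from limma, in the comparisons of PTH with vehicle, YKL-05-093 with vehicle and PTH with YKL-05-093 (red points were called, dotted lines mark 2-fold). Gja1 at 1.70 and Panx3 at -1.06 were called for PTH, Gja1 at 1.13 was not called for YKL-05-093, and the intervals between the treatments were narrower than those against vehicle.

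Ordered by mean level in vehicle, the 9 genes ran from Pkd2 (26.7 RPKM) and Panx3 (25.2 RPKM), through Pkd1 (15.8 RPKM), Gja1 (15.1 RPKM), Piezo1 (12.1 RPKM), Gjc1 (9.35 RPKM) and P2rx7 (8.83 RPKM), to Panx1 (3.48 RPKM) and Trpv4 (2.31 RPKM). Neighbours overlapped between Pkd2 and Panx3 and all along the run from Pkd1 to P2rx7, so their order within those stretches did not exceed the spread between libraries. Over all tested genes the median level in vehicle was 6.81 RPKM. Gja1 came first of the 9 after PTH and after YKL-05-093, and its mean lay above that of 90.8% and 86.3% of all tested genes, against 70.8% in vehicle. Panx3 lay above 81.7% of tested genes with vehicle, 66.2% with PTH and 82.5% with YKL-05-093.

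Relatives of the 9 genes were read from 10 family lists. These held 124 other genes, of which 40 passed the limit on low values. The counts and medians given below for a list include those of the 9 genes that belong to it. Kcnk10 entered through its treated libraries alone, so its differences from vehicle are given as a description. In the comparison of the treatments, 8 of the 40 had an adjusted p under 0.05 (20%, beside 9.97% of all genes tested), each at less than 2-fold.

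Kcnk10 (ENSMUSG00000033854, chr12:98429437-98578310, reverse strand) encodes TREK-2, a potassium channel of the K2P family that opens on membrane stretch and with arachidonic acid. Its level was 0.317 and 0.226 RPKM with vehicle, 2.67 and 2.68 RPKM with PTH and 2.40 and 2.48 RPKM with YKL-05-093. It had 14 and 16 reads in the vehicle libraries and 123 to 146 in the treated ones, and it reached the limit on low values through the treated libraries alone. All treated libraries lay above both vehicle libraries. The log2(RPKM + 0.1) difference from vehicle was 2.91 for PTH and 2.78 for YKL-05-093, and the added 0.1 RPKM makes these understate the change. With the limit lowered to 0.1 RPKM, which the vehicle libraries of Kcnk10 reach too, limma gave adjusted p of 0.00330 and 0.0153 in that order. With no low-value filter they were 0.0554 and 0.135, above the threshold. Kcnk10 was named from its list because it was called, so these values are not separate support for its change. Between the treatments the log2 difference of Kcnk10 was 0.13 (95% interval -0.17 to 0.43, limma adjusted p = 0.676). The related TREK-1 gene Kcnk2 was at 1.13 and 0.981 RPKM with vehicle, 1.55 and 1.77 RPKM with PTH and 0.734 and 0.885 RPKM with YKL-05-093. Kcnk2 did not pass against vehicle (log2 difference 0.61 for PTH and -0.35 for YKL-05-093, limma adjusted p = 0.189 and 0.747), and it differed by 0.96 between the treatments (limma, adjusted p = 0.000323), short of 2-fold. Kcnk4, the remaining K2P gene on the list, had 5 to 13 reads.

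Of 14 pannexins and other large-pore channel genes, 8 were tested, and for PTH Panx3 was the 1 called. The median log2 difference of the 8 was -0.06 for PTH and -0.15 for YKL-05-093. Lrrc8b and Lrrc8e, subunits of the volume-regulated anion channel, differed from vehicle after PTH by -0.02 and 0.23 (limma adjusted p = 0.99 and 0.67). Fam26e, a gene of the calcium homeostasis modulator family, was at 7.36 and 9.03 RPKM with vehicle, 4.28 and 3.85 RPKM with PTH and 6.02 and 6.38 RPKM with YKL-05-093. Its log2 difference after PTH was -0.99 (limma adjusted p = 0.0406), just short of 2-fold.

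Of 15 P2X and P2Y nucleotide receptors, 4 were tested, with a median log2 difference of 0.01 for PTH and -0.13 for YKL-05-093. P2rx4 had the highest level, 32.3 to 37.5 RPKM over the 6 libraries, above P2rx7 in each, and its log2 difference was 0.11 for PTH (limma adjusted p = 0.834). P2rx5 was at 1.42 and 2.15 RPKM in vehicle and 0.951 and 0.808 RPKM after PTH, a difference that did not pass (limma adjusted p = 0.16). Of 9 genes listed for extracellular ATP turnover, 4 were tested (Ank, Nt5e, Enpp1 and Adora2b), with medians of 0.08 and -0.04. The list holds adenosine receptors, such as Adora2b, and transporters besides enzymes. Nt5e, which turns AMP into adenosine, was at 11.2 and 8.13 RPKM with vehicle, 6.78 and 6.15 RPKM with PTH and 11.2 and 12.6 RPKM with YKL-05-093. It was lower after PTH than after YKL-05-093 by a log2 difference of -0.87 (limma, adjusted p = 4.76e-06), and did not pass against vehicle (adjusted p = 0.274 for PTH).

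Of 13 Piezo, TMEM63 and TMC genes, 4 were tested, and the median log2 difference was 0.15 for PTH and -0.06 for YKL-05-093. Tmem63a was at 8.28 and 7.11 RPKM in vehicle and 9.15 and 10.6 RPKM after PTH (limma adjusted p = 0.443), and Piezo2 had no more than 0.437 RPKM in a library. Of 21 TRPV, TRPC and TRPM genes, 6 were tested, with medians of 0.02 and 0.10. Trpm7, the highest of these, was at 27.5 and 14.6 RPKM in vehicle and 16.1 and 14.6 RPKM after PTH, with the first vehicle library apart as for Pkd1, Pkd2 and Piezo1. Of 8 polycystins 3 were tested (Pkd1, Pkd2 and Pkd2l2), with medians of -0.38 and -0.27. Pkd1 and Pkd2 enter these medians with their high value in the first vehicle library. Of 18 voltage-gated calcium channel subunits 6 were tested, with medians of -0.26 and -0.01. Of 12 partners of connexin 43, such as scaffold and adherens junction proteins, 10 were tested, with medians of -0.28 for PTH and -0.16 for YKL-05-093. Ctnnb1 (beta-catenin), the highest of these by its mean over the 6 libraries, was at 214 and 168 RPKM with vehicle. It was at 132 and 124 RPKM with PTH and 147 and 158 RPKM with YKL-05-093. These differences did not pass (limma adjusted p = 0.293 and 0.793). The vehicle pair was wide for partners such as Nedd4 (198 and 128 RPKM) and close for others such as Nov (45.0 and 48.9 RPKM). The part of this in the medians was not tested.

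**Figure D5:**
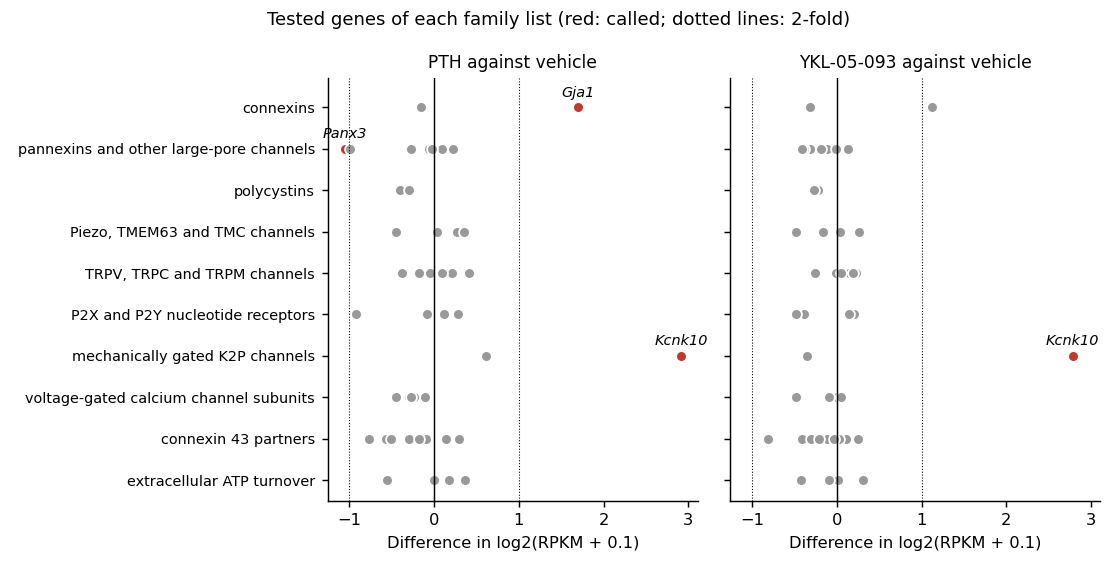
Difference from vehicle in log2(RPKM + 0.1) for every tested gene of the 10 family lists, after PTH and after YKL-05-093, with called genes in red and 2-fold as dotted lines. Gja1 at 1.70 and Panx3 at -1.06 were called for PTH. Kcnk10, at 2.91 and 2.78, is red as well but reached the limit on low values through its treated libraries alone.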

How the data were processed

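RNA of Ocy454 cells was depleted of ribosomal RNA with RiboZero and made into directional libraries (NEBNext Ultra Directional). The authors mapped reads to mm10/GRCm38 with STAR and counted them per gene with HTSeq 0.6.0 and Ensembl release 75. The submitters' processing notes also name CASAVA 1.7. The authors deposited RPKM values without a log. How they took gene lengths is not stated.

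Whole read numbers were worked back from the step size of the RPKM in each library (26214 of 26214 genes above 0 within 0.001 of a read, adding up to 99.7% of the totals). A multiple of a length would give whole reads too, and 36.3% of lengths equalled the merged exons of GENCODE M21 less 1 base per exon. Positions come from GENCODE M21 (GRCm38), which held 96.2% of the identifiers.

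The study ran edgeR on counts, but RPKM are not counts. Here limma 3.58.1 (R 4.3.3) was fitted to log2(RPKM + 0.1) for the 4 libraries of each comparison, over genes for which 2 or more libraries held 0.5 RPKM or more, with a variance trend on the mean log2 recovered reads and Benjamini-Hochberg adjustment over all genes. It was tested on simulated data with the same spread in every group and no trend with gene length, unlike the vehicle pair here. Tables and figures were made with Python 3.11.15. Intervals are limma's and cover the spread between these libraries only. Precision at low levels is set by reads, with 3 reads as the floor.

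The settings came from an earlier description of these data, and the members and lists were chosen with earlier results of these data known. Named were all 9 genes, up to 4 genes of each list (called, then highest) and the 3 genes closest to each called gene. Genes named outside this rule (Kcnk4, Panx2, Piezo2, single markers picked from the cell type lists and those of the closing observations) were chosen after their values were seen. Alternatives were other fits, filters, pseudocounts, scalings and thresholds, voom, a replicate block and leaving out each library.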

Additional observations from a re-analysis of the deposited data

How the results depend on the processing

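The number of the 9 genes called stayed at 2 for PTH against vehicle in most settings, but was 1 with the spread modelled on the mean log2 value, 0 without a filter on low values, and 0 to 2 when a library was left out. For YKL-05-093 against vehicle it was 1 rather than 0 (Gja1) with all 6 libraries in 1 fit, after centring, with voom and with a replicate block, and 0 to 1 with a library left out. For PTH against YKL-05-093 it was 0 rather than 1 without a filter, 2 by adjusted p alone, and 0 to 1 with a library left out. Leave-one-out fits of all 6 libraries, added after the data were seen, gave 0 to 2 for PTH, 0 to 1 for YKL-05-093 and 0 in each fit between the treatments (limma). The replicate numbers did not pair libraries (correlations of replicate differences between groups from -0.05 to -0.03). With them as a block, 2, 1 and 1 of the 9 genes and 440 and 215 of all genes were called for PTH and YKL-05-093 against vehicle. Counts over all genes also moved, for PTH from 272 to 160 with the spread modelled on the mean log2 value, 0 without a filter (limma) and 14 to 669 with a library left out. For YKL-05-093 they moved from 95 to 173 with all 6 libraries in 1 fit, 6 with the spread on the mean log2 value, 55 with a pseudocount of 1 RPKM, 57 with a filter at 0.1 RPKM, 0 without a filter and 11 to 321 with a library left out. Between the treatments they moved from 172 to 102 with all 6 libraries, 98 with a pseudocount of 1 RPKM, 542 at 1.5-fold, 1421 by adjusted p alone and 0 to 155 with a library left out. No called difference changed sign. Leaving out a library reduces both samples and residual degrees of freedom, and the other causes were not tested. For genes at or under 3 reads a change was not detectable.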

Other observations

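Chosen after their values were seen, the 8 relatives with an adjusted p under 0.05 in the comparison of PTH with YKL-05-093 were Fam26e, Cacnb3, Cdh2, Dbn1 and Nt5e, lower after PTH, and Tmem63a, Kcnk2 and Tjp1, higher after PTH. Dbn1, which encodes drebrin, an actin-binding partner of connexin 43, was at 13.9 and 15.3 RPKM after PTH and 20.7 and 21.9 RPKM after YKL-05-093, on either side of the vehicle libraries at 17.7 and 18.1 RPKM (log2 difference between the treatments -0.54, limma adjusted p = 6.8e-05). Cdh2, N-cadherin, was at 3.10 and 2.95 RPKM after PTH and 3.86 and 4.56 RPKM after YKL-05-093, beside 5.77 and 4.69 RPKM in vehicle (log2 difference between the treatments -0.46, limma adjusted p = 0.00261). Dbn1 and Cdh2 did not pass against vehicle (limma adjusted p of 0.510 and 0.0844 for PTH).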
